A study of Mus musculus with 8 samples.

Results

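The genes described here are 36 genes of DNA repair and the DNA damage checkpoint in mouse thymocytes. They were taken from a list of gene symbols, and all 36 were found in each of the 4 deposited tables, which list 23278 genes. By role they are 9 genes of homologous recombination, 7 of Fanconi anaemia crosslink repair, 6 of nonhomologous end joining, 1 of mismatch repair, 3 of base excision and single-strand break repair, 4 of break sensing, 5 of checkpoint signalling and 1 of DNA methylation maintenance. The cells were CD4+CD8+ double-positive thymocytes of C57BL/6 mice, sorted with a GFP+ gate. RNA sequencing asked which transcripts differ there once Hdac3, a histone deacetylase that acts within the NCoR and SMRT corepressors, is deleted. The groups were formed by genotype and by stage, each of 2 libraries made from pools of total RNA depleted of ribosomal RNA, 8 libraries in all. Hdac3KO DP2 and Hdac3KO DP1 cells came from mice with floxed Hdac3 alleles (Hdac3F/F) and an LCK-Cre transgene, which acts in developing T cells. WT DP2 and WT DP1 cells came from Hdac3+/+ mice, for which the labels do not say clearly whether the transgene was present. DP2 cells had high CD5 and intermediate TCRβ at the surface, levels reached once the T cell receptor signals in selection, and DP1 cells had low CD5 and low TCRβ. Age is not given in the labels.

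Homologous recombination repairs a broken chromosome by copying the sister chromatid, so it belongs to cells that have replicated their DNA, and the Fanconi anaemia proteins bring it to crosslinked DNA. Nonhomologous end joining rejoins ends directly in any phase of the cell cycle, and in double-positive thymocytes it also completes V(D)J recombination, in which the RAG nuclease cuts the T cell receptor α locus and new gene segments are joined. Mismatch repair and base excision repair correct replication errors and damaged bases, while the kinases Atm and Atr signal breaks and stalled replication to Chek2 and Chek1.

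Each value is the authors' FPKM (sequenced fragments scaled for the length of the transcript and for depth), given once per gene and group. No spread between libraries and no depth per library can be read from such a value. A gene was called higher or lower where the q-value in the authors' deposited table was at most 0.05. The p-values behind it come from the authors' Cuffdiff test of 2 libraries per group and speak for these libraries only. How far they reflect the spread between libraries is not given. The error given after a log2 change is its standard error (SE), computed as the size of the change over the normal quantile that the deposited p corresponds to. It is an upper bound where p has its smallest value of 5e-05. FPKM were scaled within each table, so the same group differs slightly between tables, by a median ratio between 0.881 and 1.10.

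The targeted gene was lower in the knockout at both stages. Hdac3 had 15.4 FPKM in Hdac3KO DP2 against 29.7 FPKM in WT DP2, and 11.7 FPKM in Hdac3KO DP1 against 38.1 FPKM in WT DP1, in the authors' deposited tables (q = 0.0131 and q = 0.000879). All 8 markers of double-positive thymocytes were expressed in every group, and 4 of them were higher in Hdac3KO DP2 than in WT DP2. Between the stages 1 of the 8 was lower in Hdac3KO DP2 than in Hdac3KO DP1 (median log2 change -0.11), and 5 were lower in WT DP2 than in WT DP1 (median -1.002). The summed FPKM of 3 B cell markers stayed between 0.690 and 2.71 and that of 3 natural killer markers between 0.278 and 1.44, with Ncr1 at 0 in both WT groups. Of the 4 myeloid and dendritic markers Itgax and Csf1r stayed below 1 FPKM, Lyz2 reached 2.80 FPKM in WT DP2, and Itgam was higher in the knockout, at 15.7 FPKM in Hdac3KO DP2 against 1.60 FPKM in WT DP2 and 9.58 FPKM in Hdac3KO DP1 against 2.40 FPKM in WT DP1 in the authors' deposited tables. The erythroid marker Alas2 was higher in the knockout in DP1, at 2.51 FPKM in Hdac3KO DP1 against 0.676 FPKM in WT DP1 in the authors' deposited table (q = 0.0117). Of 4 thymic epithelial markers Foxn1 and Krt5 stayed below 1 FPKM. Psmb11 had 7.30 FPKM in Hdac3KO DP1 against 3.21 FPKM in WT DP1 in the authors' deposited table (q = 0.00154). Epcam went the other way there and just missed the threshold, with 1.14 FPKM in Hdac3KO DP1 and 2.58 FPKM in WT DP1 (q = 0.0503). Between the stages Epcam had 1.13 FPKM in WT DP2 against 2.95 FPKM in WT DP1 in the authors' deposited table (q = 0.0357). The part of these differences in the results that follow was not tested. Ikzf2, which regulatory T cells also express, had 24.0 FPKM in Hdac3KO DP2 against 94.8 FPKM in WT DP2 in the authors' deposited table, beside Foxp3 below 1 FPKM in every group. Xist had 139 FPKM in Hdac3KO DP2 and 208 FPKM in Hdac3KO DP1, against 0.243 FPKM in WT DP2 and 0.0945 FPKM in WT DP1 in the authors' deposited tables, so sex and genotype cannot be told apart in the comparisons of genotypes. Sex-linked genes differed between the stages as well. Xist had 127 FPKM in Hdac3KO DP2 against 209 FPKM in Hdac3KO DP1 in the authors' deposited table (q = 0.0337). The Y-linked genes Ddx3y, Uty and Eif2s3y were all higher in WT DP2 than in WT DP1, Ddx3y with 154 FPKM in WT DP2 against 64.5 FPKM in WT DP1 in the authors' deposited table (q = 0.000835), and their part in the stage changes was not tested.

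**Figure D1:**
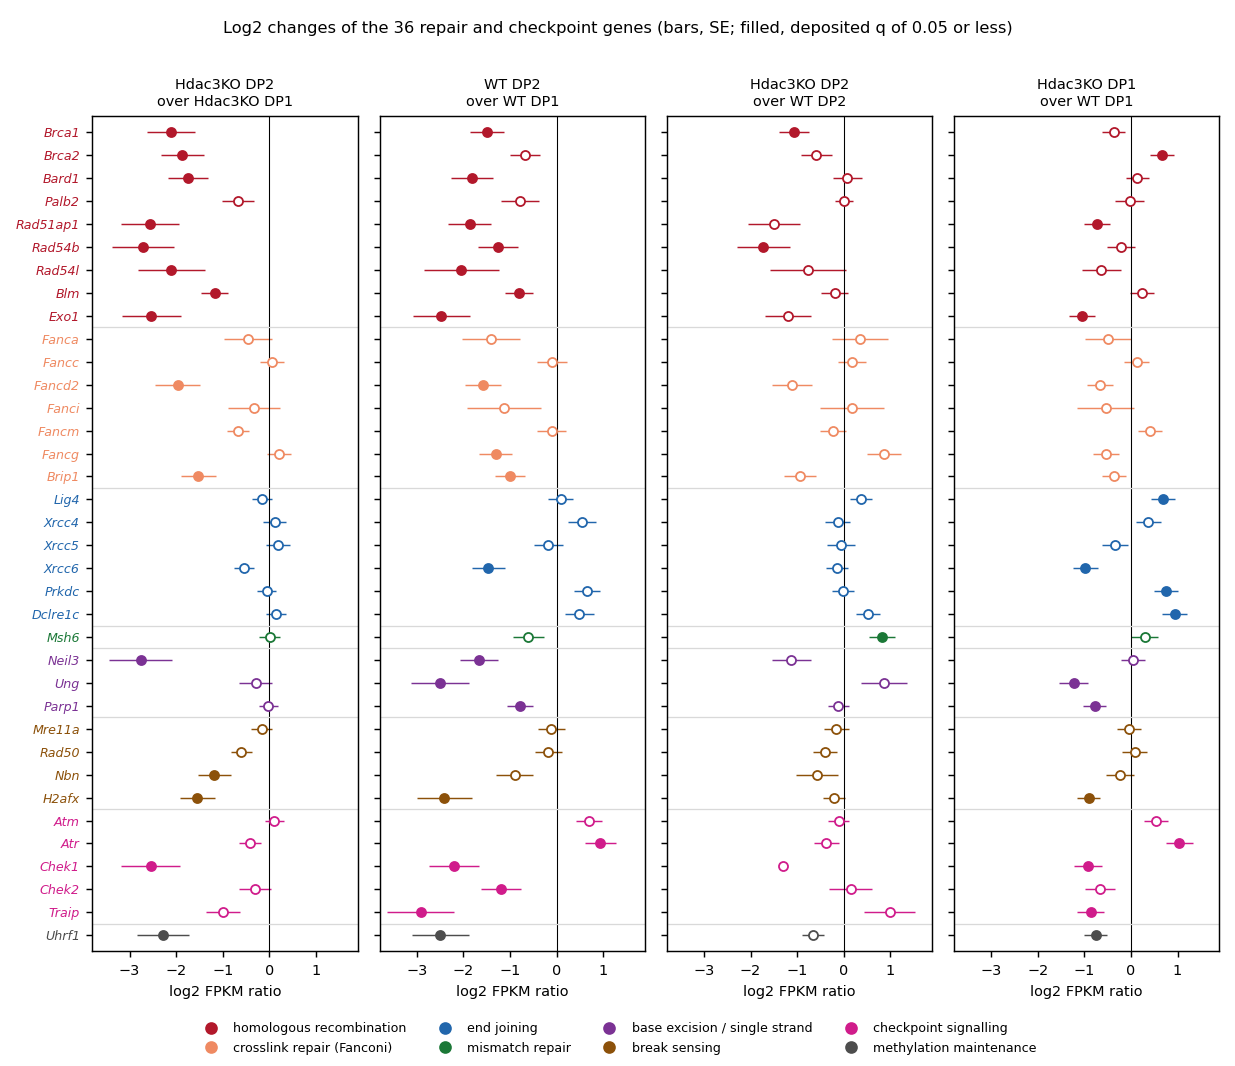
Log2 FPKM ratio (x axis) of each of the 36 genes (rows, coloured by role) in the comparisons of stages in Hdac3KO and in WT and of genotypes in DP2 and in DP1 (panels, left to right). Bars are the SE, and filled points have a deposited q of at most 0.05. The recombination genes at the top lie left of 0 in both comparisons of stages, while the end joining genes lie near 0 or to its right except Xrcc6. Chek1 has no bar in DP2 because it was not tested there.

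Wherever these genes differed between the stages they were lower in DP2, except Atr in WT. In Hdac3KO cells 15 of the 36 genes were lower in DP2 than in DP1 and 0 were higher by the Cuffdiff q (20 and 0 at an unadjusted p of 0.05), beside 4.65% lower, 1.78% higher and 6.43% together among all genes tested. In WT cells 19 of 36 were lower and 1 was higher, beside 16.8% lower, 5.56% higher and 22.3% together among all genes. The median log2 change over the 36 genes was -0.64 in Hdac3KO and -1.06 in WT, beside 0.01 and -0.24 over all genes. Since the samples are bulk populations, fewer cells that express a gene and less RNA per cell cannot be told apart. Markers of proliferating cells moved the same way, with 16 of 16 lower in Hdac3KO DP2 than in Hdac3KO DP1 (median log2 change -1.84) and 15 of 16 lower in WT DP2 than in WT DP1 (median -1.86), and their part in the changes of the repair genes was not tested.

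Of the 15 genes lower in Hdac3KO DP2 than in Hdac3KO DP1, 8 were among the 9 of homologous recombination, whose median log2 change was -2.10. In WT cells 7 of the 9 fell, with a median of -1.49. Rad54b, a translocase that helps a broken strand invade the sister duplex, had 1.81 FPKM in Hdac3KO DP2 against 11.8 FPKM in Hdac3KO DP1 in the authors' deposited table (-2.71 ± 0.67, q = 0.00151). In WT it had 6.42 FPKM in WT DP2 against 15.4 FPKM in WT DP1 in the authors' deposited table (-1.26 ± 0.43, q = 0.0207). The values of Rad54b are uncertain, because 35.8% of its exon bases are shared on the same strand with Fsbp. Rad51ap1, which stimulates strand invasion, had 2.95 FPKM in Hdac3KO DP2 against 17.4 FPKM in Hdac3KO DP1 in the authors' deposited table (-2.56 ± 0.63, q = 0.00151). Its WT values were 8.90 FPKM in WT DP2 and 32.4 FPKM in WT DP1 in the authors' deposited table (-1.86 ± 0.46, q = 0.000835). Rad51ap1 was thus lower in DP2 than in DP1 in either genotype. Exo1, an exonuclease that resects broken ends, had 1.08 FPKM in Hdac3KO DP2 against 6.23 FPKM in Hdac3KO DP1 in the authors' deposited table (-2.53 ± 0.62, q = 0.00151). It had 2.63 FPKM in WT DP2 against 14.6 FPKM in WT DP1 in the authors' deposited table (-2.47 ± 0.61, q = 0.000835). The steps of Exo1 between the stages were thus of nearly the same size in both genotypes.

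The Brca genes fell as well, except Brca2 in WT. Brca1, which promotes end resection, had 3.70 FPKM in Hdac3KO DP2 against 16.0 FPKM in Hdac3KO DP1 in the authors' deposited table (-2.11 ± 0.52, q = 0.00151). In WT cells Brca1 had 8.30 FPKM in WT DP2 against 23.3 FPKM in WT DP1 in the authors' deposited table (-1.49 ± 0.37, q = 0.000835). Bard1, its partner in a ubiquitin ligase, had 2.67 FPKM in Hdac3KO DP2 against 9.02 FPKM in Hdac3KO DP1 in the authors' deposited table (-1.75 ± 0.43, q = 0.00151). In WT Bard1 had 2.65 FPKM in WT DP2 against 9.34 FPKM in WT DP1 in the authors' deposited table (-1.82 ± 0.45, q = 0.000835), close to the knockout at each stage. Brca2, which prepares single-stranded DNA for strand invasion, had 2.54 FPKM in Hdac3KO DP2 against 9.29 FPKM in Hdac3KO DP1 in the authors' deposited table (-1.87 ± 0.46, q = 0.00151). Its WT values of 4.09 FPKM in WT DP2 and 6.53 FPKM in WT DP1 in the authors' deposited table did not pass (-0.67 ± 0.33, q = 0.122). The helicase gene Blm, whose product takes apart joined recombination intermediates, fell by less than the others. Its log2 change was -1.17 ± 0.29 in Hdac3KO (q = 0.00151 in the authors' deposited table) and -0.81 ± 0.31 in WT (q = 0.0409). Rad54l, the second translocase, fell by a log2 change of -2.10 ± 0.71 in Hdac3KO (q = 0.0498 in the authors' deposited table) and -2.05 ± 0.80 in WT (q = 0.0494), both near the threshold, and 15.4% of its exon bases overlap Lrrc41 on the opposite strand, whose reads could be mixed in if strand was not used in counting. Palb2, the bridge between Brca1 and Brca2, was the recombination gene that passed in neither genotype, with log2 changes of -0.68 ± 0.35 in Hdac3KO (q = 0.311 in the authors' deposited table) and -0.78 ± 0.41 in WT (q = 0.160). Among 25 further recombination genes 6 were lower in Hdac3KO DP2 than in Hdac3KO DP1 and 8 were lower in WT DP2 than in WT DP1, with 0 higher in either, also at an unadjusted p of 0.05 by Cuffdiff. Dna2, a nuclease and helicase of end resection, fell by log2 changes of -1.39 ± 0.34 in Hdac3KO (q = 0.00151 in the authors' deposited table) and -1.77 ± 0.44 in WT (q = 0.000835).

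Genes of replication and recombination often carry sites for E2F factors, which drive transcription at the entry to S phase, near their starts. Promoters from RefSeq on the GRCm38.p6 assembly, 250 bases before to 50 after a start, were matched for 29 of the 36 genes, 32 promoters in all. The letters TTTCCCGC, TTTCGCGC, TTTGCCGC or TTTGGCGC of an E2F site stood on either strand of 21.9% of them, against 2.26% of the 32851 promoters counted and 4.24% of the promoters of genes tested in DP1. Both of these backgrounds leave out a chromosome that holds none of the 36 genes. The letters CCAAT of the CCAAT box stood in 62.5%, against 37.4% and 38.6%, and TTTGAA, the cell cycle homology region, in 6.25%, against 17.9% and 12.2%. The genes with the E2F letters were Brca2, Bard1, Fancg, Xrcc6, Msh6, Chek2 and Uhrf1. They include 3 of the 10 matched genes that were lower in Hdac3KO DP2 than in Hdac3KO DP1 and 4 of the 19 matched genes that were not called there. A match is a run of letters and not a measured binding site. Shown here are Brca2 (chr5:150522371-150522670, plus strand) and Bard1 (chr1:71102923-71103222, minus strand) as recombination genes, Xrcc6 (chr15:82016119-82016418, plus strand) and Msh6 (chr17:87974800-87975099, plus strand) as the end joining and mismatch repair genes with these letters, and Atr (chr9:95857347-95857646, plus strand), which holds none of the motifs. Capitals mark the motifs.
Brca2: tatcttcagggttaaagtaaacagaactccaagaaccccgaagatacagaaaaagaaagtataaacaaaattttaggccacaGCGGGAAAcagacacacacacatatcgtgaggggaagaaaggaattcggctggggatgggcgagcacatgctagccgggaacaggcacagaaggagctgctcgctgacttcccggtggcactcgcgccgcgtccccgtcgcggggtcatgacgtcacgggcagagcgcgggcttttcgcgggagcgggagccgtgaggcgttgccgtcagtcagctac
Bard1: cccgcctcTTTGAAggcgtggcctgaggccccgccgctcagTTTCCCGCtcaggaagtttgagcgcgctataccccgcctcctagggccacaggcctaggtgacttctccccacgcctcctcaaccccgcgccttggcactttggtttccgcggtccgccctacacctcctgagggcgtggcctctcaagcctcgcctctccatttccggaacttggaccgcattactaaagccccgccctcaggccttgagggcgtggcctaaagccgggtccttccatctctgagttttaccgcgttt
Xrcc6: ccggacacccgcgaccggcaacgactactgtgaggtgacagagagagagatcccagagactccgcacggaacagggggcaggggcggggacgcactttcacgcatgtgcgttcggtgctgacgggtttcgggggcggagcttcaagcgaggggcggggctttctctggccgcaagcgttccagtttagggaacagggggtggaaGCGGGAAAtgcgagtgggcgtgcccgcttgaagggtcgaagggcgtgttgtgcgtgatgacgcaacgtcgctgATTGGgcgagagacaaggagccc
Msh6: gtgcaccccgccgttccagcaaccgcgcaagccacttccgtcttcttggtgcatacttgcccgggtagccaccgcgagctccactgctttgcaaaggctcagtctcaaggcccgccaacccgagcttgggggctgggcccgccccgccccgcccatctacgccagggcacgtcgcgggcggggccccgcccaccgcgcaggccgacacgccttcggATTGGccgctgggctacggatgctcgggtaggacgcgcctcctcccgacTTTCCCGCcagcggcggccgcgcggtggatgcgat
Atr: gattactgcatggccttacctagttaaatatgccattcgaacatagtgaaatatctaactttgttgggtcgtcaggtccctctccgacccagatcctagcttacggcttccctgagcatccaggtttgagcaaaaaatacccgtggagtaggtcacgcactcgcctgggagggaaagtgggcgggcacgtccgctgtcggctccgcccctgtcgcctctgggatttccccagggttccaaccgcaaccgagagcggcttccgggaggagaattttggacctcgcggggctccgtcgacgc
In the Brca2 promoter the capitals begin 168 bases before the start and read the E2F letters on the opposite strand. The Bard1 promoter holds the cell cycle homology region 242 bases and the E2F site 209 bases before the start. In Xrcc6 an E2F match lies 46 bases before the start and a CCAAT box, again on the opposite strand, after it, while in Msh6 a CCAAT box lies 34 bases before the start and the E2F letters after it.

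Crosslink repair was divided. Of its 7 genes 2 were lower in Hdac3KO DP2 than in Hdac3KO DP1 (median log2 change -0.46) and 3 were lower in WT DP2 than in WT DP1 (median -1.12). Fancd2, whose product is ubiquitinated as the central step of the pathway, had 2.16 FPKM in Hdac3KO DP2 against 8.47 FPKM in Hdac3KO DP1 in the authors' deposited table (-1.97 ± 0.49, q = 0.00151). In WT cells Fancd2 had 5.03 FPKM in WT DP2 against 15.04 FPKM in WT DP1 in the authors' deposited table (-1.58 ± 0.39, q = 0.000835). Brip1, a helicase that binds Brca1, had 4.95 FPKM in Hdac3KO DP2 against 14.3 FPKM in Hdac3KO DP1 in the authors' deposited table (-1.52 ± 0.38, q = 0.00151). In WT cells Brip1 had 10.2 FPKM in WT DP2 against 20.4 FPKM in WT DP1 in the authors' deposited table (-0.998 ± 0.33, q = 0.0170). Both genes were thus lower in DP2 in either genotype. Fancg, of the core ubiquitin ligase complex, fell in WT, with 4.19 FPKM in WT DP2 against 10.3 FPKM in WT DP1 in the authors' deposited table (-1.30 ± 0.36, q = 0.00311). In the knockout Fancg had 7.25 FPKM in Hdac3KO DP2 and 6.27 FPKM in Hdac3KO DP1 in the authors' deposited table (0.21 ± 0.27, q = 0.817). Its fellow core genes Fanca and Fancc, the translocase gene Fancm and Fanci, the partner of Fancd2, passed in neither genotype, with log2 changes between -0.68 and 0.06 in Hdac3KO and between -1.41 and -0.10 in WT. Opposite-strand genes overlap 10.5% of the exon bases of Fanca (Zfp276), 16.4% of those of Fancc (Gm16133) and 16.0% of those of Fanci (Polg). Of 8 further genes of the pathway, Usp1, which removes ubiquitin from Fancd2, was the one lower in Hdac3KO DP2 than in Hdac3KO DP1, with 17.2 FPKM in Hdac3KO DP2 and 51.5 FPKM in Hdac3KO DP1 in the authors' deposited table (-1.58 ± 0.39, q = 0.00151), and 3 of the 8 were lower in WT DP2 than in WT DP1.

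Of the 6 end joining genes 0 were called in Hdac3KO by the Cuffdiff q, with a median log2 change of 0.03 (at an unadjusted p of 0.05, 0 were higher and 1 lower). In WT 1 of 6 was called and the median was 0.29. Xrcc6, a subunit of the Ku ring that caps broken ends, was that gene and the most abundant of the 36 in WT DP1, with 139.7 FPKM in WT DP2 against 385 FPKM in WT DP1 in the authors' deposited table (-1.46 ± 0.36, q = 0.000835). In the knockout it had 118 FPKM in Hdac3KO DP2 and 172 FPKM in Hdac3KO DP1 in the authors' deposited table (-0.54 ± 0.21, q = 0.108). The other Xrcc6 values lie between 118 and 172 FPKM, below that of WT DP1. Xrcc5, the other subunit of Ku, had 15.3 FPKM in Hdac3KO DP2 and 13.5 FPKM in Hdac3KO DP1 and, in WT, 17.1 FPKM in WT DP2 and 19.2 FPKM in WT DP1 in the authors' deposited tables, and passed in neither. Prkdc, the kinase that Ku recruits, had 20.1 FPKM in Hdac3KO DP2 and 20.9 FPKM in Hdac3KO DP1 in the authors' deposited table (-0.06 ± 0.20, q = 0.955). In WT cells Prkdc had 21.7 FPKM in WT DP2 and 13.8 FPKM in WT DP1 in the authors' deposited table (0.65 ± 0.28, q = 0.0741). Dclre1c, which encodes Artemis and opens the hairpin ends left by RAG, had 66.9 FPKM in Hdac3KO DP2 and 60.7 FPKM in Hdac3KO DP1 in the authors' deposited table (0.14 ± 0.22, q = 0.863). In WT cells Dclre1c had 49.9 FPKM in WT DP2 and 35.5 FPKM in WT DP1 in the authors' deposited table (0.49 ± 0.31, q = 0.253). Its WT DP1 value is the lowest of these. Lig4 and Xrcc4, the ligase and its cofactor, had log2 changes of -0.16 ± 0.21 and 0.11 ± 0.24 in Hdac3KO and 0.09 ± 0.28 and 0.55 ± 0.30 in WT, with q in the authors' deposited table between 0.182 and 0.907. Relative to the median gene, which was 0.33 lower on the log2 scale in WT DP2 than in WT DP1, Xrcc4, Prkdc, Dclre1c and Atm were called higher in WT DP2 beside Atr, and the split over all 36 genes was 5 higher and 13 lower in place of 1 and 19. Rad54b, Rad54l, Blm, Brip1, Parp1 and Chek2 then lost their calls in WT. Of the further genes of end joining, 3 of 12 tested were lower in Hdac3KO DP2 than in Hdac3KO DP1, and 3 of 13 were lower and 1 higher in WT DP2 than in WT DP1. Polq, the polymerase of the alternative pathway, had 1.87 FPKM in Hdac3KO DP2 against 8.82 FPKM in Hdac3KO DP1 in the authors' deposited table (-2.24 ± 0.55, q = 0.00151). Paxip1, which acts with the end protection factor Trp53bp1, fell by log2 changes of -0.86 ± 0.21 in Hdac3KO (q = 0.00151 in the authors' deposited table) and -0.86 ± 0.28 in WT (q = 0.0157). The one higher gene in WT was Poll, a polymerase that fills gaps in end joining, at 1.69 FPKM in WT DP2 against 0.485 FPKM in WT DP1 in the authors' deposited table (q = 0.0240), named after its values were seen.

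**Figure D2:**
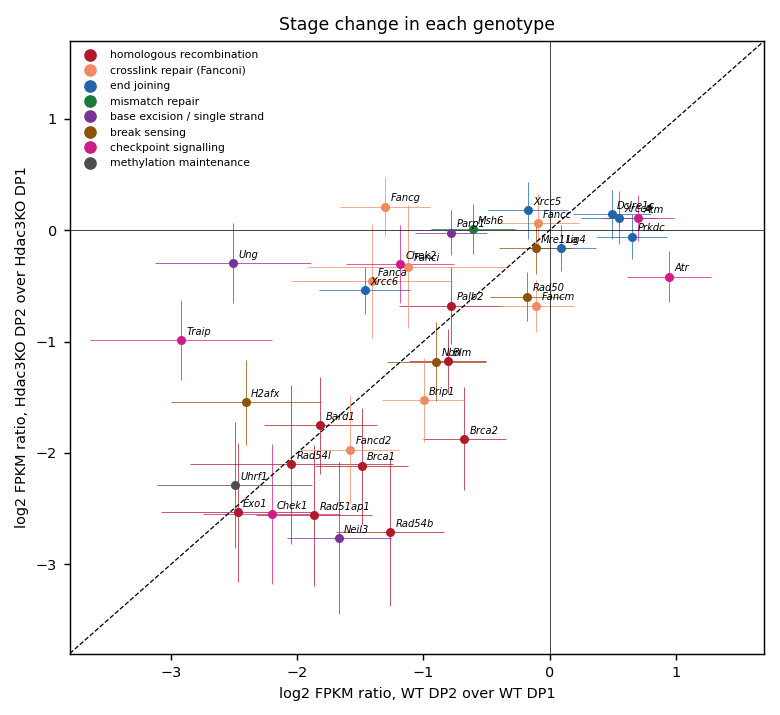
Log2 FPKM ratio of DP2 over DP1 in Hdac3KO (y axis) against the same ratio in WT (x axis) for the 36 genes, coloured by role, with SE bars on both axes and the line of equal change (dashed). Recombination genes gather at the lower left, end joining genes around the origin except Xrcc6, and Ung and Traip lie far to the left of the line of equal change.

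Mismatch repair is represented by Msh6, which recognises mispaired bases. It passed in neither comparison of stages, with 149 FPKM in Hdac3KO DP2 and 148 FPKM in Hdac3KO DP1 in the authors' deposited table (0.01 ± 0.23, q = 0.993). In WT cells Msh6 had 89.7 FPKM in WT DP2 and 137 FPKM in WT DP1 in the authors' deposited table (-0.61 ± 0.33, q = 0.180). Of the 7 further genes of this pathway 1 was lower in Hdac3KO DP2 than in Hdac3KO DP1 and 2 were lower in WT DP2 than in WT DP1. Lig1, the ligase that also seals replicated strands, had 10.1 FPKM in Hdac3KO DP2 against 43.6 FPKM in Hdac3KO DP1 in the authors' deposited table (-2.11 ± 0.52, q = 0.00151). In WT cells Lig1 had 12.3 FPKM in WT DP2 against 84.2 FPKM in WT DP1 in the authors' deposited table (-2.77 ± 0.68, q = 0.000835). With the further genes of each pathway counted in, 14 of 34 recombination genes, 3 of 18 tested end joining genes and 1 of 8 mismatch repair genes were lower in Hdac3KO DP2 than in Hdac3KO DP1. In WT the counts lower in DP2 were 15 of 34, 4 of 19 and 2 of 8. Among all genes tested 4.65% were lower in Hdac3KO DP2 than in Hdac3KO DP1 and 16.8% in WT DP2 than in WT DP1. The WT counts of end joining and mismatch repair were thus near that of any gene, and the mismatch repair counts rest on few genes.

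The remaining roles held some of the steepest changes. Neil3, a glycosylase that removes oxidised bases, had the largest log2 change of the 36 in the knockout, with 4.05 FPKM in Hdac3KO DP2 against 27.5 FPKM in Hdac3KO DP1 in the authors' deposited table (-2.77 ± 0.68, q = 0.00151). In WT cells Neil3 had 9.44 FPKM in WT DP2 against 30.0 FPKM in WT DP1 in the authors' deposited table (-1.67 ± 0.41, q = 0.000835). Ung, the uracil glycosylase, fell in WT, with 1.63 FPKM in WT DP2 against 9.29 FPKM in WT DP1 in the authors' deposited table (-2.51 ± 0.62, q = 0.000835). In the knockout Ung had 2.81 FPKM in Hdac3KO DP2 and 3.45 FPKM in Hdac3KO DP1 in the authors' deposited table (-0.30 ± 0.36, q = 0.803), both below the WT DP1 value. Parp1, which marks single-strand breaks with poly(ADP-ribose), fell in WT with 41.6 FPKM in WT DP2 against 71.6 FPKM in WT DP1 in the authors' deposited table (-0.78 ± 0.28, q = 0.0305), while the knockout values were 36.3 FPKM in Hdac3KO DP2 and 36.8 FPKM in Hdac3KO DP1 (q = 0.982). H2afx, the histone variant phosphorylated around breaks, had 42.8 FPKM in Hdac3KO DP2 against 125 FPKM in Hdac3KO DP1 in the authors' deposited table (-1.55 ± 0.38, q = 0.00151). In WT cells H2afx had 51.2 FPKM in WT DP2 against 272 FPKM in WT DP1 in the authors' deposited table (-2.41 ± 0.59, q = 0.000835). Nbn, of the complex that senses breaks and activates Atm, fell in the knockout, with 5.52 FPKM in Hdac3KO DP2 against 12.5 FPKM in Hdac3KO DP1 in the authors' deposited table (-1.18 ± 0.36, q = 0.0189). The WT change of Nbn, -0.90 ± 0.39, did not pass (q = 0.0823). The other members of that complex, Mre11a and Rad50, passed in neither, with log2 changes from -0.60 to -0.16 in Hdac3KO and from -0.18 to -0.11 in WT. Uhrf1, which brings the maintenance methyltransferase to newly replicated DNA, had 16.7 FPKM in Hdac3KO DP2 against 81.6 FPKM in Hdac3KO DP1 in the authors' deposited table (-2.29 ± 0.56, q = 0.00151). In WT cells Uhrf1 had 27.9 FPKM in WT DP2 against 157 FPKM in WT DP1 in the authors' deposited table (-2.49 ± 0.61, q = 0.000835). Among further base excision genes, 2 of 14 tested were lower in Hdac3KO DP2 than in Hdac3KO DP1 and 4 of 15 were lower in WT DP2 than in WT DP1. Fen1, the flap nuclease of repair and replication, was lower in both, with 16.4 FPKM in Hdac3KO DP2 against 33.2 FPKM in Hdac3KO DP1 in the authors' deposited table (-1.02 ± 0.25, q = 0.00151). In WT cells Fen1 had 20.4 FPKM in WT DP2 against 72.1 FPKM in WT DP1 in the authors' deposited table (-1.82 ± 0.45, q = 0.000835). The glycosylase gene Mbd4 was the other lower in Hdac3KO (-0.77 ± 0.25, q = 0.0329 in the authors' deposited table), and the scaffold gene Xrcc1 was among the others lower in WT (-1.29 ± 0.32, q = 0.000835).

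Of the checkpoint genes Chek1 fell in both genotypes and Chek2 in WT, while Atr was higher in WT DP2 than in WT DP1. Chek1, the effector of Atr, had 2.09 FPKM in Hdac3KO DP2 against 12.3 FPKM in Hdac3KO DP1 in the authors' deposited table (-2.55 ± 0.63, q = 0.00151). In WT cells Chek1 had 5.60 FPKM in WT DP2 against 25.8 FPKM in WT DP1 in the authors' deposited table (-2.20 ± 0.54, q = 0.000835). Chek2, the effector of Atm, fell in WT, with 4.33 FPKM in WT DP2 against 9.85 FPKM in WT DP1 in the authors' deposited table (-1.19 ± 0.43, q = 0.0314). In the knockout Chek2 had 4.47 FPKM in Hdac3KO DP2 and 5.52 FPKM in Hdac3KO DP1 in the authors' deposited table (q = 0.788). Traip, a ubiquitin ligase at stalled replication forks, had 1.37 FPKM in WT DP2 against 10.4 FPKM in WT DP1 in the authors' deposited table (-2.92 ± 0.72, q = 0.000835), the largest WT change of the 36. In the knockout Traip had 2.53 FPKM in Hdac3KO DP2 and 5.02 FPKM in Hdac3KO DP1 in the authors' deposited table (-0.99 ± 0.36, q = 0.0846). Atr was the one gene of the 36 called higher in DP2, with 16.8 FPKM in WT DP2 against 8.73 FPKM in WT DP1 in the authors' deposited table (0.94 ± 0.33, q = 0.0277). With the trend of transcript length over all genes removed, Atr stood at 0.86 in WT (q = 0.0648 by a normal test with the same SE) and lost its call. In the knockout Atr had 12.1 FPKM in Hdac3KO DP2 and 16.1 FPKM in Hdac3KO DP1 in the authors' deposited table (-0.42 ± 0.23, q = 0.372). Atm had log2 changes of 0.11 ± 0.21 in Hdac3KO (q = 0.896 in the authors' deposited table) and 0.70 ± 0.29 in WT (q = 0.0600), neither of which passed. Of 16 further checkpoint genes 7 were lower in Hdac3KO DP2 than in Hdac3KO DP1 and 8 were lower in WT DP2 than in WT DP1. Clspn, the adaptor through which Atr reaches Chek1, had 7.11 FPKM in Hdac3KO DP2 against 30.9 FPKM in Hdac3KO DP1 in the authors' deposited table (-2.12 ± 0.52, q = 0.00151). In WT cells Clspn had 9.90 FPKM in WT DP2 against 34.2 FPKM in WT DP1 in the authors' deposited table (-1.79 ± 0.44, q = 0.000835). Wee1, the kinase that holds Cdk1 inactive, led the list in the knockout (-2.52 ± 0.62, q = 0.00151 in the authors' deposited table), and Timeless, of the fork protection complex, led it in WT (-2.32 ± 0.57, q = 0.000835).

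The comparisons of stages in Hdac3KO and in WT share no library, and 13 genes were lower in both, which is 86.7% of the 15 in Hdac3KO and 68.4% of the 19 in WT. The same overlap was not counted over all genes tested, of which 4.65% were lower in Hdac3KO DP2 and 16.8% in WT DP2. Whether the overlap is particular to the 36 genes is thus not known. Brca2 and Nbn were called in Hdac3KO alone and Chek2, Fancg, Parp1, Traip, Ung and Xrcc6 in WT alone, which does not by itself show that the stage changes differ between the genotypes. Across the 36 genes the log2 changes of stage in the knockout and in WT had a Pearson correlation of 0.64 and a Spearman correlation of 0.66, beside 0.32 and 0.17 across the 5378 genes with at least 10 FPKM in all 4 groups. No such minimum was set for the 36 genes, so the correlations come from gene sets of unlike expression. Genes are not independent replicates, so these correlations are descriptions.

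The genotypes differed in 3 of the 35 genes tested in DP2 and in 14 of the 36 in DP1. In Hdac3KO DP2 1 gene was higher than in WT DP2 and 2 were lower, beside 6.44% higher and 4.32% lower among all genes tested. These make 8.57% of the 35, against 10.8% of all genes, so the count is near that of any gene. The median log2 change was -0.15, beside 0.08 over all genes. In Hdac3KO DP1 5 of 36 were higher than in WT DP1 and 9 were lower, 38.9% together, beside 10.7% higher, 12.9% lower and 23.6% together among all genes tested. The median there was -0.29, beside -0.08. Proliferation markers were lower in the knockout at both stages, 10 of 16 in DP2 (median log2 change -0.91) and 11 of 16 in DP1 (median -0.84), and their part was not tested here either.

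**Figure D3:**
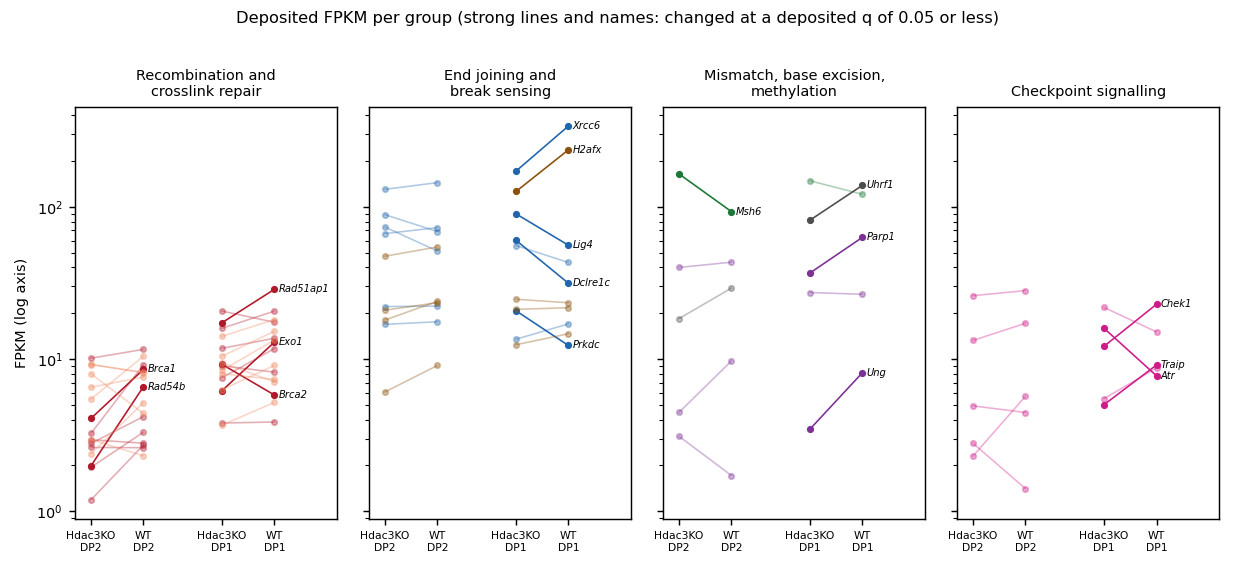
Deposited FPKM (y axis, log scale) of the 36 genes in Hdac3KO DP2, WT DP2, Hdac3KO DP1 and WT DP1, by role (panels), from the tables that compare genotypes. Each point is the authors' value for a group, lines join the genotypes of a stage, and strong lines with names mark a deposited q of at most 0.05. In DP2 the 3 named genes are Brca1, Rad54b and Msh6, while in DP1 14 genes are named and run in both directions.

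In DP2 the 2 lower genes were both among the 9 of homologous recombination, whose median log2 change was -0.77. Of the 25 further recombination genes 1 was lower and 0 were higher (median -0.32), beside 4.32% lower among all genes tested. These counts are too small to set recombination apart from other genes in DP2. Brca1 had 4.07 FPKM in Hdac3KO DP2 against 8.54 FPKM in WT DP2 in the authors' deposited table (-1.07 ± 0.33, q = 0.0168). Rad54b, uncertain as above, had 1.99 FPKM in Hdac3KO DP2 against 6.57 FPKM in WT DP2 in the authors' deposited table (-1.73 ± 0.56, q = 0.0255). Uhrf1 and Rad51ap1 lay just outside the threshold. Uhrf1 had 18.4 FPKM in Hdac3KO DP2 and 29.2 FPKM in WT DP2 in the authors' deposited table (-0.67 ± 0.24, q = 0.0504). Rad51ap1 had 3.24 FPKM in Hdac3KO DP2 and 9.17 FPKM in WT DP2 in the authors' deposited table (-1.50 ± 0.55, q = 0.0564). Relative to the median gene, which was 0.12 higher in Hdac3KO DP2, Rad51ap1, Fancd2, Brip1, Neil3 and Uhrf1 joined the lower genes and Msh6 left the higher ones, a split of 0 higher and 7 lower. Chek1 had 2.30 FPKM in Hdac3KO DP2 and 5.70 FPKM in WT DP2 in the authors' deposited table but was not tested there. Base excision, break sensing and the tested checkpoint genes held 0 calls in DP2 by the Cuffdiff q (1 lower at an unadjusted p of 0.05), with log2 changes from -1.12 for Neil3 to 0.99 for Traip. Of their further genes Wee1 was lower, at 1.43 FPKM in Hdac3KO DP2 against 4.47 FPKM in WT DP2 in the authors' deposited table (-1.65 ± 0.48, q = 0.0108), named after its values were seen.

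Msh6 was the one gene higher in Hdac3KO DP2, at 164 FPKM in Hdac3KO DP2 against 93.0 FPKM in WT DP2 in the authors' deposited table (0.82 ± 0.28, q = 0.0378). Relative to the median gene its q by a normal test was 0.0904, so the call depends on the scaling. Of the 7 further mismatch repair genes 0 passed in DP2 by the Cuffdiff q, and 0 at an unadjusted p of 0.05. In DP1 Msh6 had 148 FPKM in Hdac3KO DP1 and 121 FPKM in WT DP1 in the authors' deposited table (0.29 ± 0.28, q = 0.484). Of the further mismatch repair genes Lig1 was lower there, at 43.7 FPKM in Hdac3KO DP1 against 74.1 FPKM in WT DP1 in the authors' deposited table (-0.76 ± 0.25, q = 0.0158).

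End joining had 4 of 6 genes called in DP1, 3 of them higher, with a median log2 change of 0.53. In DP2 0 of the 6 were called by the Cuffdiff q (1 was higher at an unadjusted p of 0.05), and the median was -0.03. Dclre1c had 60.2 FPKM in Hdac3KO DP1 against 31.4 FPKM in WT DP1 in the authors' deposited table (0.94 ± 0.27, q = 0.00476). Prkdc had 20.7 FPKM in Hdac3KO DP1 against 12.3 FPKM in WT DP1 in the authors' deposited table (0.76 ± 0.26, q = 0.0191). Lig4 had 89.9 FPKM in Hdac3KO DP1 against 55.9 FPKM in WT DP1 in the authors' deposited table (0.68 ± 0.26, q = 0.0361). These encode a nuclease, a kinase and a ligase of end joining. Xrcc6 went the other way, at 172 FPKM in Hdac3KO DP1 against 339.7 FPKM in WT DP1 in the authors' deposited table (-0.98 ± 0.27, q = 0.00303). Xrcc4 and Xrcc5 had log2 changes of 0.37 ± 0.27 (q = 0.326 in the authors' deposited table) and -0.33 ± 0.28 (q = 0.403). In DP2 the 6 genes lay between -0.15 and 0.52 on the log2 scale. Of further end joining genes 2 of 12 tested were higher in Hdac3KO DP1 than in WT DP1 and 1 was lower. The higher ones were Aplf, a histone chaperone that binds Ku, at 12.9 FPKM in Hdac3KO DP1 against 6.80 FPKM in WT DP1 (0.92 ± 0.27, q = 0.00592) in the authors' deposited table, and Polm, a gap-filling polymerase. Polm had 6.40 FPKM in Hdac3KO DP1 against 3.46 FPKM in WT DP1 in the authors' deposited table (0.89 ± 0.31, q = 0.0241). Nhej1, which bridges the ends for Lig4, was the lower one, at 4.62 FPKM in Hdac3KO DP1 against 10.7 FPKM in WT DP1 in the authors' deposited table (-1.21 ± 0.42, q = 0.0223). In DP2 Polm was again higher, at 9.97 FPKM in Hdac3KO DP2 against 4.88 FPKM in WT DP2 in the authors' deposited table (1.03 ± 0.34, q = 0.0255). Polq (-1.40 ± 0.42, q = 0.0142) and Rif1 (-0.79 ± 0.24, q = 0.0142), an end protection factor, were the 2 of 13 that were lower in the authors' deposited table.

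The other higher genes in DP1 were Atr and Brca2. Atr had 15.9 FPKM in Hdac3KO DP1 against 7.76 FPKM in WT DP1 in the authors' deposited table (1.04 ± 0.29, q = 0.00393), the largest increase of the 36. Brca2 had 9.23 FPKM in Hdac3KO DP1 against 5.80 FPKM in WT DP1 in the authors' deposited table (0.67 ± 0.26, q = 0.0459), opposite in direction to the other recombination genes called in DP1. Those were Exo1, at 6.20 FPKM in Hdac3KO DP1 against 12.9 FPKM in WT DP1 in the authors' deposited table (-1.06 ± 0.28, q = 0.00207), and Rad51ap1. Rad51ap1 had 17.3 FPKM in Hdac3KO DP1 against 28.7 FPKM in WT DP1 in the authors' deposited table (-0.73 ± 0.28, q = 0.0415). Of the 25 further genes of recombination 6 were lower and 0 higher in Hdac3KO DP1, led by Mcm8, a helicase subunit, at 4.42 FPKM in Hdac3KO DP1 against 11.4 FPKM in WT DP1 (-1.37 ± 0.36, q = 0.00207) in the authors' deposited table. Rpa2, of the complex that coats single strands, had 19.2 FPKM in Hdac3KO DP1 against 43.1 FPKM in WT DP1 in the authors' deposited table (-1.16 ± 0.29, q = 0.000879).

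Lower genes in DP1 came from every role other than crosslink and mismatch repair. Ung had 3.47 FPKM in Hdac3KO DP1 against 8.14 FPKM in WT DP1 in the authors' deposited table (-1.23 ± 0.32, q = 0.00154). Parp1 had 36.8 FPKM in Hdac3KO DP1 against 63.1 FPKM in WT DP1 in the authors' deposited table (-0.78 ± 0.24, q = 0.0114). H2afx had 126 FPKM in Hdac3KO DP1 against 237 FPKM in WT DP1 in the authors' deposited table (-0.91 ± 0.25, q = 0.00393), and 10.2% of its exon bases overlap Gm44335 on the opposite strand. Chek1 had 12.1 FPKM in Hdac3KO DP1 against 22.9 FPKM in WT DP1 in the authors' deposited table (-0.92 ± 0.30, q = 0.0150). Traip had 5.02 FPKM in Hdac3KO DP1 against 9.14 FPKM in WT DP1 in the authors' deposited table (-0.87 ± 0.30, q = 0.0205). Uhrf1 had 81.8 FPKM in Hdac3KO DP1 against 139 FPKM in WT DP1 in the authors' deposited table (-0.76 ± 0.25, q = 0.0166). Crosslink repair had 0 called genes in either stage by the Cuffdiff q, with medians of 0.17 in DP2 and -0.49 in DP1. At an unadjusted p of 0.05 these were 1 higher and 2 lower in DP2 and 1 lower in DP1. Of its further genes Ube2t, which ubiquitinates Fancd2 with the core complex, was lower in DP1, at 4.79 FPKM in Hdac3KO DP1 against 13.4 FPKM in WT DP1 in the authors' deposited table (-1.49 ± 0.38, q = 0.00154). Fancf, of the core complex, was the second of the 2 lower genes among 8. Of further base excision genes Parg, which removes poly(ADP-ribose), was higher in Hdac3KO DP1 (0.84 ± 0.25, q = 0.00833 in the authors' deposited table), and Fen1 (-0.93 ± 0.27, q = 0.00476) and Xrcc1 (-0.93 ± 0.27, q = 0.00592) were lower. Of further checkpoint genes 3 of 16 were lower there, Cdc25c (-1.21 ± 0.34, q = 0.00436 in the authors' deposited table), Timeless (-0.86 ± 0.25, q = 0.00665) and Tipin, its partner. Relative to the median gene, which was 0.11 lower in Hdac3KO DP1, the split over the 36 genes was 6 higher and 8 lower.

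Transcript length moved with the changes in DP1. The 5 higher genes have a longest transcript between 5028 bases (Lig4) and 12647 bases (Prkdc), and across the 36 genes the Pearson correlation of the log2 change with log2 length was 0.57 and the Spearman correlation 0.51. Across the 5278 genes that reached 10 FPKM in each group and a known length these were 0.36 and 0.50, so the trend is one of the whole table. WT DP2 over WT DP1, which shares the WT DP1 libraries, showed it too (0.45 and 0.41 across the 36 genes). Across the 36 genes the Pearson correlations were -0.03 in Hdac3KO DP2 over WT DP2 and 0.08 in Hdac3KO DP2 over Hdac3KO DP1. Across all genes with that minimum and a known length they were -0.05 and -0.16. A weaker relation of opposite sign was thus present in Hdac3KO DP2 over Hdac3KO DP1, and the source of the length relations was not tested. With the trend over all genes removed, 0 of the 36 genes were higher in Hdac3KO DP1 and 8 were lower by a normal test with the same SE. Atr then stood at 0.64 (q = 0.116), Dclre1c at 0.62 (q = 0.0968) and Lig4 at 0.54 (q = 0.142). Brca2 stood at 0.14 (q = 0.783) and Prkdc at 0.15 (q = 0.756). Rad51ap1 and H2afx also lost their calls, and Fancd2 gained one.

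**Figure D4:**
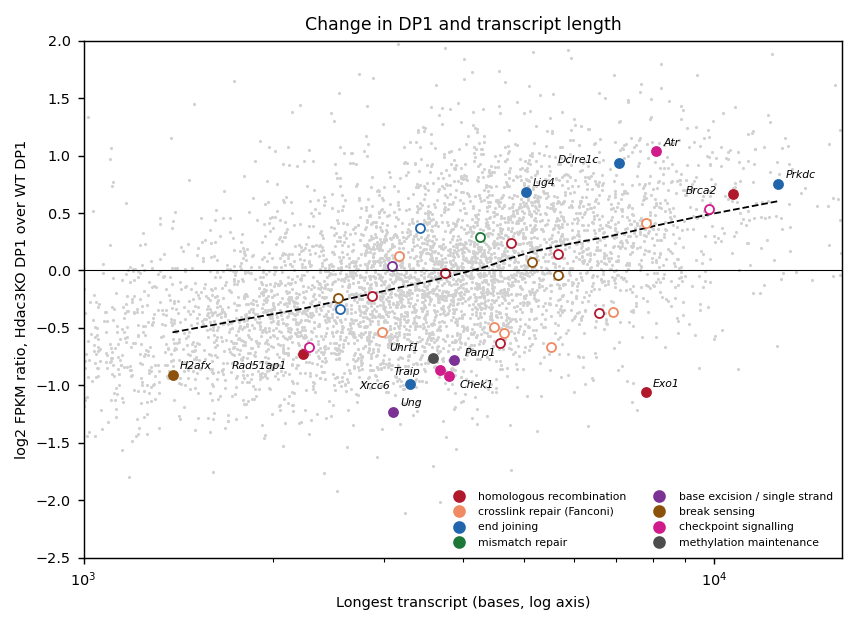
Log2 FPKM ratio of Hdac3KO DP1 over WT DP1 (y axis) against the length of the longest transcript (x axis, log scale) for the 36 genes, coloured by role with the called ones filled and named, and for all genes that reached 10 FPKM in each group (grey), with their lowess trend (dashed). The axes cover the range of the 36 genes and leave out some grey points. The trend rises with length, and the 5 higher genes lie at 5028 bases and beyond.

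The genotype effect was then compared between the stages, as the log2 change in DP2 minus that in DP1. A two-sided normal test used the SE from the Cuffdiff p, and its q is adjusted over all genes tested. Of the 35 genes that could be tested, 1 lay above 0 and 1 below, beside 0.897% above, 1.18% below and 2.08% together among all genes. At an unadjusted p of 0.05 they were 6 above and 5 below. Ung had an effect of 0.86 ± 0.49 in DP2 and -1.23 ± 0.32 in DP1, a difference of 2.09 ± 0.59 (q = 0.0368). Its values in the authors' deposited tables were 3.11 FPKM in Hdac3KO DP2 and 1.72 FPKM in WT DP2, and 3.47 FPKM in Hdac3KO DP1 and 8.14 FPKM in WT DP1, so that WT DP1 was the high group. Atr had an effect of -0.37 ± 0.27 in DP2 and 1.04 ± 0.29 in DP1, a difference of -1.41 ± 0.40 (q = 0.0374). Its values were 13.2 FPKM in Hdac3KO DP2 and 17.2 FPKM in WT DP2, and 15.9 FPKM in Hdac3KO DP1 and 7.76 FPKM in WT DP1, in the authors' deposited tables, and here WT DP1 was the low group. Traip (1.86 ± 0.62, q = 0.0759), Brca2 (-1.26 ± 0.42, q = 0.0759) and Fancg (1.40 ± 0.46, q = 0.0726) had large differences that did not pass. Computed from the tables that compare stages, which hold the same libraries, the called genes were Atr (-1.36 ± 0.41, q = 0.0400) and Fancg (1.51 ± 0.44, q = 0.0393), beside 2.07% above 0, 1.06% below and 3.13% together among all genes, and Ung missed the threshold (2.21 ± 0.72, q = 0.0564). With the length trend removed from both tables, a setting chosen after seeing the data, 0 of the 35 genes were called. Among the 6 end joining genes the differences ran from -0.77 ± 0.35 for Prkdc to 0.84 ± 0.35 for Xrcc6, with q of 0.212 and 0.172, and Msh6 had 0.53 ± 0.40 (q = 0.488).

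**Figure D5:**
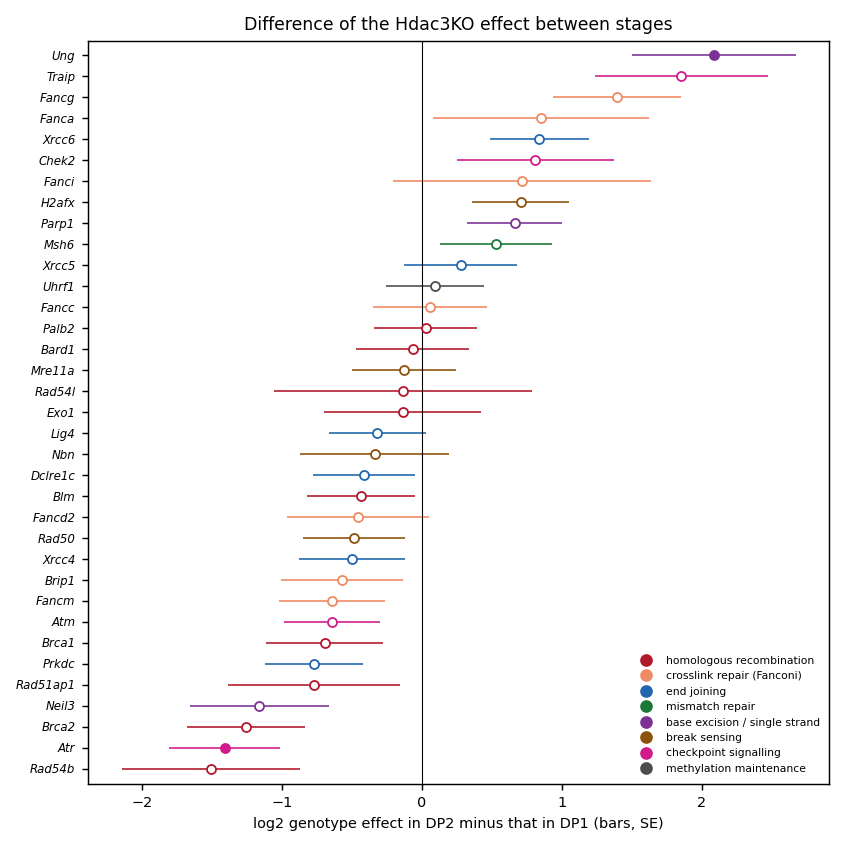
Difference of the log2 genotype effect, DP2 minus DP1 (x axis), for the 35 genes tested (rows, ordered by size, coloured by role), with SE bars. Filled points, Ung at the top with 2.09 and Atr near the bottom with -1.41, have a q of at most 0.05.

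Over the 4 comparisons 26 of the 36 genes were called at least once. How many of all genes were called at least once was not counted. Single comparisons called from 6.43% (Hdac3KO DP2 over Hdac3KO DP1) to 23.6% (Hdac3KO DP1 over WT DP1) of all genes tested. The 10 of the 36 called in none were Palb2, Fanca, Fancc, Fanci, Fancm, Xrcc4, Xrcc5, Mre11a, Rad50 and Atm, for which differences were not detectable with these libraries.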

How the data were processed

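RNA from 8 samples of sorted thymocytes in 4 groups of 2 was sequenced. Per the labels' protocols, Trizol was used for extraction, ribosomal RNA was removed and a stranded SMARTer kit made the libraries. Per the submitters' processing notes the tools were Trimmomatic 0.32, TopHat2 2.0.11 and Cuffdiff 2.1.1 on mm10. The gene annotation, the settings and the use of strand in counting are not given in the sources used here. The authors' deposited tables, 4 in all, each give 1 FPKM per gene and group, a Cuffdiff test statistic (a score), a p-value and a q-value. The deposited q-value was recomputed by the Benjamini-Hochberg method from the p-values of tested genes and differed by at most 5.26e-07. Spreadsheet errors fill the deposited log2 column, and the ratios here come from the FPKM. The depth of each library is unknown, so no counting interval is given.

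The main test was the deposited q at 0.05. The difference between stages was divided by its SE (the SE of both stages combined in quadrature) for a normal p, Benjamini-Hochberg adjusted over 10144 genes, and the procedure was tested on simulated data. Length and GC content were read from each symbol's longest GENCODE transcript on mm10, found for all 36 genes. Trends were removed by lowess (fraction 0.3) fitted to genes reaching 10 FPKM in each group, and medians cover genes with at least 1 FPKM in either group. The members and the lists of further genes were chosen with earlier results of these data known. Of 91 further genes 85 are in the tables. Values of some further genes and markers are not reported here. Named further genes are, per list and comparison, the called genes with the largest log2 changes, at most 2 a direction, where the higher group reached 5 FPKM. As alternatives, the threshold on q was set to 0.01 and 0.10, a minimum log2 change of 1 or 5 FPKM was required, q was adjusted across the 4 tables, values were centred on the median gene, the length or GC trend was removed, the SE was set otherwise, and medians were taken with a pseudocount of 1 FPKM. A sign change of a gene without a call was not counted as a reversal. Computations used Python 3.11.15, pandas 2.3.3, numpy 2.4.6, scipy 1.17.1, statsmodels 0.14.6 and matplotlib 3.10.9.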

Additional observations from a re-analysis of the deposited data

Results flagged for a closer look

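The effect of the knockout on Ung differed between the stages by 2.09 ± 0.59 on the log2 scale (DP2 minus DP1, SE; q = 0.0368), with the knockout at 0.86 relative to WT in DP2 and at -1.23 in DP1. The effect on Atr differed by -1.41 ± 0.40 (q = 0.0374), with -0.37 in DP2 and 1.04 in DP1. Both differences were found by a two-sided normal test of the difference itself, and neither passed with the length trend removed from both tables. Neither passed with the SE multiplied by 1.5. By the same test on the comparisons of stages, Atr passed (q = 0.0400) and Ung did not (q = 0.0564). With SE from the deposited statistic Atr passed and Ung did not (q = 0.597). At a minimum of 5 FPKM Atr passed and Ung was left out.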

How the results depend on the processing

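No paired analysis was possible because the deposited tables hold 1 value per gene and group, and for the same reason leaving out each replicate and a replicate block were not run. The members lower in Hdac3KO DP2 than in Hdac3KO DP1 numbered 13 to 18 under every alternative, with 0 higher. The members higher in Hdac3KO DP1 than in WT DP1, 5 in the main test, were 2 at a q of 0.01, 1 at a log2 change of at least 1, 3 with the GC trend removed and 0 with the length trend removed, and the 9 lower ones were 4, 2 and 4 under the first 3 of these settings. The single member higher in Hdac3KO DP2 than in WT DP2 was lost (0) at a q of 0.01, at a log2 change of at least 1, on centring and with either trend removed. The 2 lower ones were 0 at a q of 0.01, 8 at 0.10, 5 on adjustment over all 4 tables, and 7 on centring or with the length trend removed. The single member higher in WT DP2 than in WT DP1 became 0 at a q of 0.01, at a log2 change of at least 1 and with the GC trend removed, 3 at a q of 0.10 and 5 on centring, and the 19 lower ones were 12 with the GC trend removed. With the length trend removed there, 1 was higher and 14 lower, but Xrcc4 took the place of Atr as the higher one, Brca2 joined the lower ones, and Rad54b, Rad54l, Blm, Fancg, Parp1 and Chek2 lost their calls. For the difference between stages, 1 above and 1 below 0 became 0 and 4 with SE from the deposited statistic (Brca2, Rad54b, Prkdc and Atr below), 0 and 0 with SE multiplied by 1.5, 0 and 1 with at least 5 FPKM, and 0 and 0 with the length trend removed from both tables, a setting chosen after seeing the data. The cause of these shifts was not tested, except that the stricter thresholds and larger SE call fewer genes by construction. The medians over the members moved by less than the members' median SE under every alternative, and no called member changed direction. For single genes, 1164 values kept their side of the threshold, 44 gained a call and 88 lost one.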
